A study of Mus musculus with 36 samples.

Results

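The cartilage collagens studied here are 7 genes, Col2a1, Col9a1, Col9a2, Col9a3, Col10a1, Col11a1 and Col11a2, which encode chains of the types II, IX, X and XI collagens. They were taken by name from a table of 21883 protein-coding genes. Open chromatin at each gene was read as the peaks over its body and over 100 kb on either side, called the gene window here. Overlapping peaks of the 12 deposited lists (1 bp or more in common) were joined, which gave 65543 regions, and 88 of them lay in the 7 windows.

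The assay was ATAC-seq, which reads open chromatin from the places where a transposase could insert sequencing adapters. Chondrocytes of the autopod (the hand and foot skeleton) came from FVB/NJ mouse embryos at E15.5, counted in embryonic days, and the labels give no treatment or engineered allele. The 36 libraries formed 12 groups of 3: hand phalanges and metacarpals of digits I, III and V from the forelimb, and foot phalanges and metatarsals of digits I, III and V from the hindlimb. Each library pooled the left and right elements of several embryos of 1 litter. Metacarpals and metatarsals are together called metapodials. Each group has 1 peak list, called on its pooled libraries, so a list has no error of its own. The p-values below measure the spread between lists, and the read depth is unknown.

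The lists held 36194 peaks (metacarpal I) to 53276 peaks (metacarpal III), so each comparison was made with all peaks and again at equal list length, with the 36194 most significant peaks of every list. The chondrocyte markers Acan, Hapln1, Matn3 and Cnmd had a peak within 1 kb of the start site in all 12 lists, and Matn1 had one in 9. No list had such a peak at Krt5 or Krt14 of epidermis, Ptprc or Gata1 of blood, Actc1, Ckm or Myh3 of muscle, Tnmd of tendon or Bglap of osteoblasts. Other markers of the same cell types did have one: Alpl of osteoblasts, Twist2 of perichondrium, Kdr and Tek of endothelium and Tubb3 of nerve in all 12 lists, Myf5 of muscle in 10, Hbb-bt of red cells in 7, Dmp1 of bone cells in 4, Kera of tendon in 3, Myog of muscle in 2, and Ibsp and Spp1 of bone in 1 each. A peak shows open chromatin in the pooled tissue and not a level of RNA, and fewer cells with an open site cannot be told apart from less opening per cell.

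Cartilage is held together by thin fibrils. Type II collagen, made of the Col2a1 chain, forms most of the fibril, type XI collagen (Col11a1, Col11a2 and a modified Col2a1 chain) sits in its core and limits its thickness, and type IX collagen (Col9a1, Col9a2 and Col9a3) decorates its surface. Type X collagen, made of Col10a1, is the product of hypertrophic chondrocytes, the cells that enlarge before bone replaces cartilage. SOX9 with SOX5 and SOX6 drives the fibril collagens, partly through an enhancer in the first intron of Col2a1, and RUNX2 and MEF2C are known regulators of Col10a1.

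The start sites of the fibril collagens carried a peak in nearly every list, and that of Col10a1 in 9 of 12. Start sites came from a RefSeq table (GRCm38.p6, the coordinates of mm10), which holds entries for 5 of the 7 genes and none for Col2a1 and Col9a3. For these 2 genes the ends of the gene body were used. Of the 5 genes with an entry, 4 had a peak within 1 kb of a start site in all 12 lists, and of 17491 genes 62.5% did. Col11a1 had the peaks with the highest deposited fold enrichment, from 35.4 to 63.0 over the 12 lists with a median of 50.9, and each lay among the most significant 4.55 to 16.3% of its list. At the upper end of Col2a1, where its transcription is known to begin, the fold enrichment ran from 18.8 to 43.9 with a median of 32.2. At the lower end of Col9a3, also its known start, it ran from 13.9 to 38.8 with a median of 31.2. Col9a2 (13.3 to 30.9, median 20.7) and Col11a2 (12.2 to 33.8, median 18.8) also had a peak in all 12 lists. The summits stood within 66 bp of the upper end of Col2a1 and within 97 bp of the Col11a1 start site in every list.

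Col9a1 has a pair of start sites, and the downstream one carried the stronger peak. The upstream start is known for the long chain found in cartilage and the downstream one for a short chain described in the eye. Fold enrichment at the upstream start ran from 6.61 to 16.4 (median 10.4) in 11 lists, and foot phalanges V had no peak there. At the downstream start it ran from 17.1 to 41.4 (median 25.5) in all 12 lists, with summits 790 to 860 bp inside the gene from that start. The 12 values at the downstream start were all above the highest value at the upstream one.

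At Col10a1 a peak lay within 1 kb of the start site in 9 lists, with fold enrichment of 5.78 to 9.91 and a median of 7.46. No peak was called there in hand phalanges V, metacarpal V or foot phalanges I. Only 6 of the 9 peaks covered the start site itself, and the median summit lay 1295 bp from it. These peaks stood late in their lists, at 48.8 to 97.6% of the order of significance, and at equal list length 7 lists kept one.

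**Figure D1:**
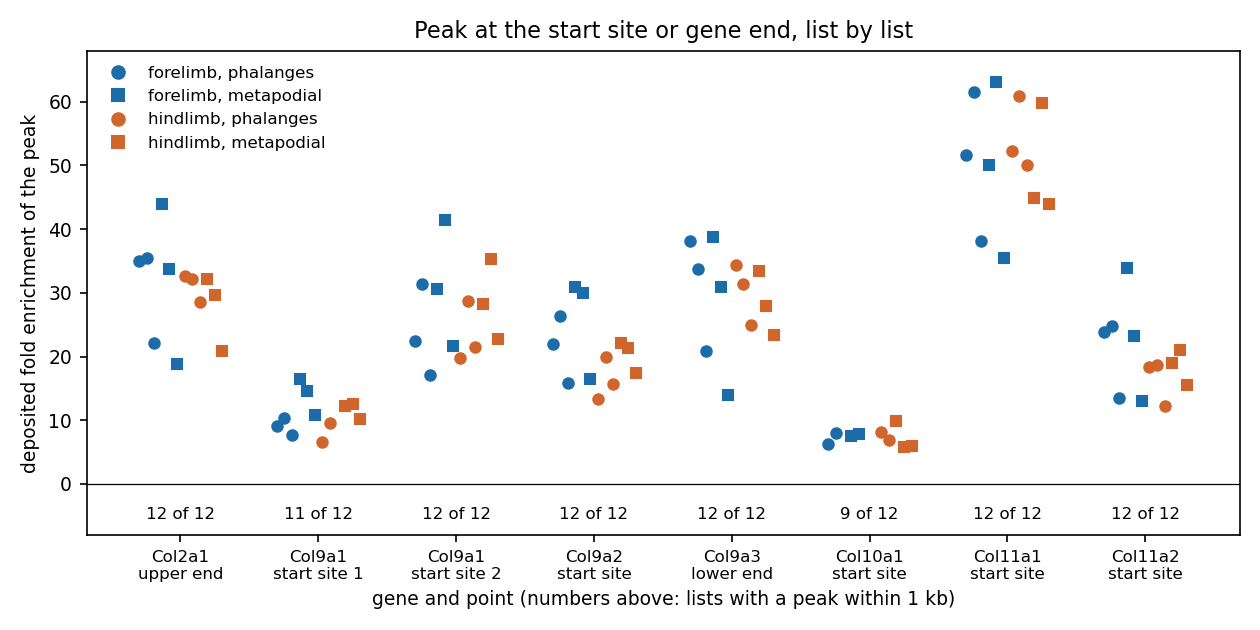
Deposited fold enrichment (y axis) of the peak within 1 kb of each start site or gene end (x axis), 1 point per list, blue for forelimb and orange for hindlimb, circles for phalanges and squares for metapodials; the numbers under the points give the lists with a peak. The points of Col11a1 run from 35.4 to 63.0 in 12 lists and those of Col10a1 from 5.78 to 9.91 in 9 lists.

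The letters before these start sites are shown for the strongest peak (Col11a1), the weakest (Col10a1) and both starts of Col9a1, from RefSeq on GRCm38.p6, plus strand, 5′ to 3′. Capitals mark matches on either strand. The letters searched for the SOX core were ACAAAG and, as its variant, ACAATG. Those for the RUNX core were TGTGGT. The TATA box was searched as TATAAA. The GC box was searched as GGGCGG, and the remaining motif was CCAAT, which names itself. The 250 bases before each start site were searched, and bases inside the annotated gene are not printed except at the downstream start of Col9a1, which lies within the gene.
Col11a1, chr3:114030290-114030478: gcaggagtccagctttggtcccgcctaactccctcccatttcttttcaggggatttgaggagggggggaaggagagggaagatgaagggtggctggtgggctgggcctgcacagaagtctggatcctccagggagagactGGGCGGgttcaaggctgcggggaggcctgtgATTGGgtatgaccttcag
Col9a1 upstream start, chr1:24177360-24177588: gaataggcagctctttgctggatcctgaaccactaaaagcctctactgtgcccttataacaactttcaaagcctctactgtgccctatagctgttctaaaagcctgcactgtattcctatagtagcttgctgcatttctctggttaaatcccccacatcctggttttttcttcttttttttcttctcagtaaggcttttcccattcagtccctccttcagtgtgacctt
Col9a1 downstream start, chr1:24194953-24195202: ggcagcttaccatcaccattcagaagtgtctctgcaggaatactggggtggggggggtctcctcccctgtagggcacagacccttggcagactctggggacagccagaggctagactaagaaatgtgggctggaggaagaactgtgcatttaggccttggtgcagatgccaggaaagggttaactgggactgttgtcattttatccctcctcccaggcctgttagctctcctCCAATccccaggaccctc
Col10a1, chr10:34389731-34389980: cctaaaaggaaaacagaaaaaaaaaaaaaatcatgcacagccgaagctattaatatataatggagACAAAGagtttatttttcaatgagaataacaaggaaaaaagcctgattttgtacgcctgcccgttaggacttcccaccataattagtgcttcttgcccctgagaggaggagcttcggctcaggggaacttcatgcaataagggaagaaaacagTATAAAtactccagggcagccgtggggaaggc

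Among the 5 genes with an entry, Col10a1 was the single one with a SOX core match, ACAAAG beginning 185 bases before the start site, and it also held TATAAA beginning 32 bases before it. ACAAAG occurred in 16.5% of 32851 promoters of that length and TATAAA in 12.4%. Col11a1 held GGGCGG at 110 and 19 bases before its start (32.7% of promoters hold it) and CCAAT, on the minus strand, at 79 bases (33.8%). The downstream start of Col9a1 held CCAAT at 18 bases, and its upstream start held none of the searched letters. Col9a2 had GC boxes at 14 and 26 bases, and Col11a2 had GC boxes at 38 and 133 bases and TATAAA at 143 bases. No entry held TGTGGT (14.0% of promoters) or ACAATG (10.7%), and no match overlapped another. A match is a description of the letters and not of a bound site.

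The 88 regions in the windows included 38 called in all 12 lists (43.2%), against 35.6% of all 65543 regions. Another 38 were called in 2 to 11 lists and 12 in 1 list (17% of all regions were called in 1 list). With lists of equal length the windows held 77 regions, 36 of them in all lists (46.8%, against 41% of all regions). By gene, the regions called in all 12 lists were 6 of 14 for Col2a1, 5 of 18 for Col9a1, 4 of 10 for Col9a2, 8 of 13 for Col9a3, 3 of 10 for Col10a1, 3 of 7 for Col11a1 and 9 of 16 for Col11a2.

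Most regions called in all lists, 22 of 38, lay at the start or end of a neighbouring gene. Of 23 regions at a start site or end of another gene, 22 were called in all 12 lists (95.7%). Of 9 regions at a start or end of a member, 6 were in all lists, as were 3 of 14 inside a member, 2 of 18 inside another gene and 5 of 24 between genes. Shares by kind over all regions are not given here, so these counts describe the windows alone. Col11a2 shared its window with 15 other genes, Col9a3 with 6, Col9a2 with 5, Col2a1 with 4 and Col10a1 with 3. No other protein-coding gene lay in the window of Col11a1, and its 3 constant regions were 1 at the start site, 1 inside the gene and 1 outside it, 75.4 kb away.

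**Figure D2:**
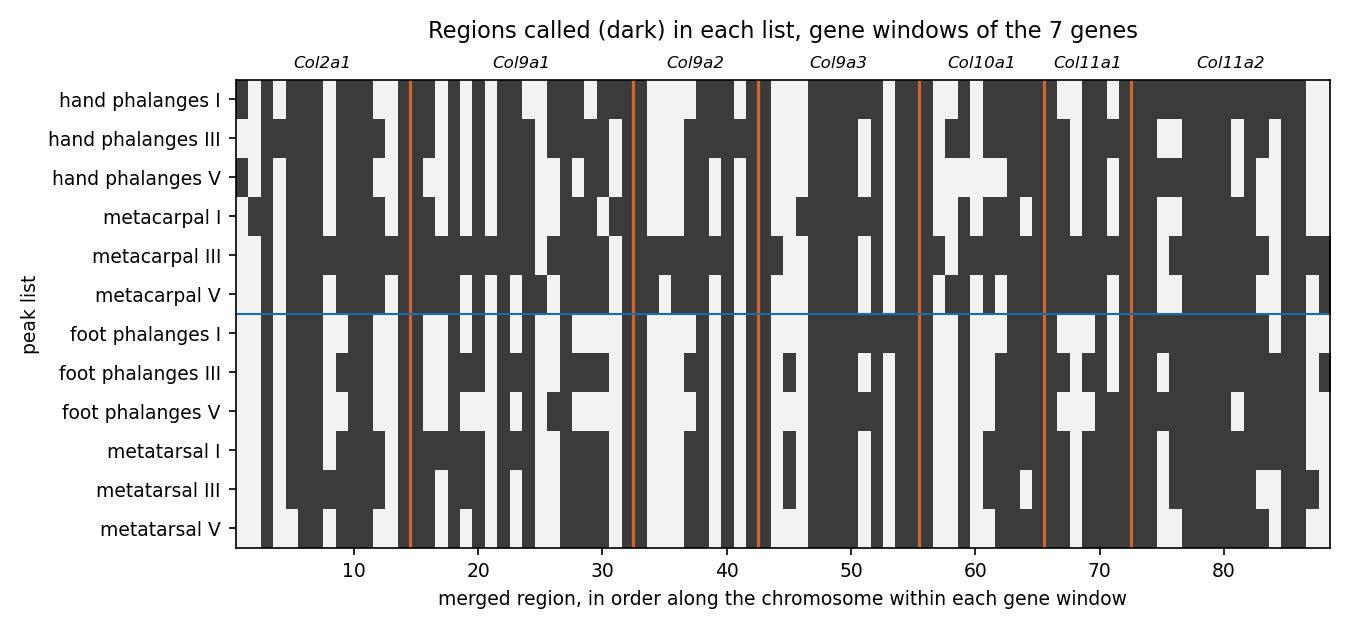
Each column is 1 of the 88 merged regions (x axis, in chromosome order within each gene window) and each row 1 of the 12 peak lists (y axis, the blue line parts forelimb from hindlimb); dark means called, and orange lines part the 7 genes. 38 columns are dark in all 12 rows, and metacarpal III is the single dark row in 6 columns.

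No region in the windows separated a limb, an element or a digit, that is, was called in every list of a class and in no other list. Among all regions 0.418% did so (274 regions), and at equal list length 0.529% did, again with 0 in the windows. With 1 exception allowed on either side, 3 regions did so, against 5.9% of all regions. In the Col2a1 window a 2.57-kb region at chr15:98047994-98050559, inside a neighbouring gene 43.3 kb away, was called in 5 of 6 metapodial lists and in hand phalanges III. In the Col9a1 window a region at chr1:24170590-24172654, 4.94 kb from the gene, was called in metacarpal III, foot phalanges III, metatarsal III and metatarsal I. In Col9a3 a 1.22-kb region at chr2:180620939-180622162, at the far end of the gene, was called in hand phalanges I, metacarpal I, foot phalanges I and foot phalanges V. That region also overlapped the neighbouring gene Tcfl5.

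A total of 4 regions met that rule at equal list length, against 5.44% of all regions. The regions of Col2a1 and Col9a3 were among them, and the other 2 separated the forelimb in the Col9a1 window. One lay at chr1:24107137-24108699, 68.9 kb from the gene, and the other at chr1:24244643-24246912, inside it. Each was called in 5 of 6 forelimb lists and in metatarsal V of the hindlimb. The region near the end of Col9a3 was then called in 3 lists, all of digit I, and had a peak with fold enrichment of 20.2 in metacarpal I.

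Some variable regions of different genes shared the same lists. The same 9 lists called 1 region each of Col9a1, Col9a2 and Col11a1, all lists but hand phalanges I, foot phalanges I and foot phalanges V. That combination was common, with 158 of the 2196 regions called in 9 lists (7.19%), rank 2 of 144 combinations of 9 lists. Regions absent from foot phalanges I and V alone occurred at Col2a1 (9.19 kb beyond the gene) and Col11a1 (29.1 kb away), and this was the most frequent combination among regions called in 10 lists (495 of 2587, 19.1%). Metacarpal III, the longest list, was the single list calling 6 of the 12 regions found in 1 list, and over all regions it called 40.2% of such regions.

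Col2a1 stood out by how much of its body was covered by peaks. The gene is 29.1 kb long (chr15:97975602-98004724). Its covered share averaged 77.2% over the 12 lists, and of 7336 genes of like length 9 had a mean as high. Over 20028 genes with a peak in their window, the median covered share of the body was 6.23%. Metacarpal III held 1 peak of 32.9 kb over the whole gene, and 11 peaks of that list were wider. The other lists split the gene into 2 or 3 peaks, the widest of 6.27 to 19.7 kb.

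The other members fell in order below Col2a1. Col9a3 had a mean covered share of the body of 46.4% (34.2 to 54.8% over the lists), Col9a2 23.2% (18.6 to 38.5%), Col9a1 20.7% (7.34 to 30.7%), Col10a1 18.5% (0 to 36.6%), Col11a2 14.6% (12.8 to 17.8%) and Col11a1 3.2% (1.64 to 4.55%). The values of Col2a1 and Col9a3 overlapped through foot phalanges I and metatarsal V alone, at 52.3 and 36.4% of Col2a1. Col9a2, Col9a1 and Col10a1 overlapped each other over most of their ranges. Read against genes of like length, 97.9% had a lower mean than Col9a3, 95.9% than Col9a1, 84.4% than Col9a2, 81.7% than Col11a2, 54.7% than Col10a1 and 48.9% than Col11a1. Col11a1 thus combined the strongest start-site peak with a middling share for a gene of 190 kb.

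**Figure D3:**
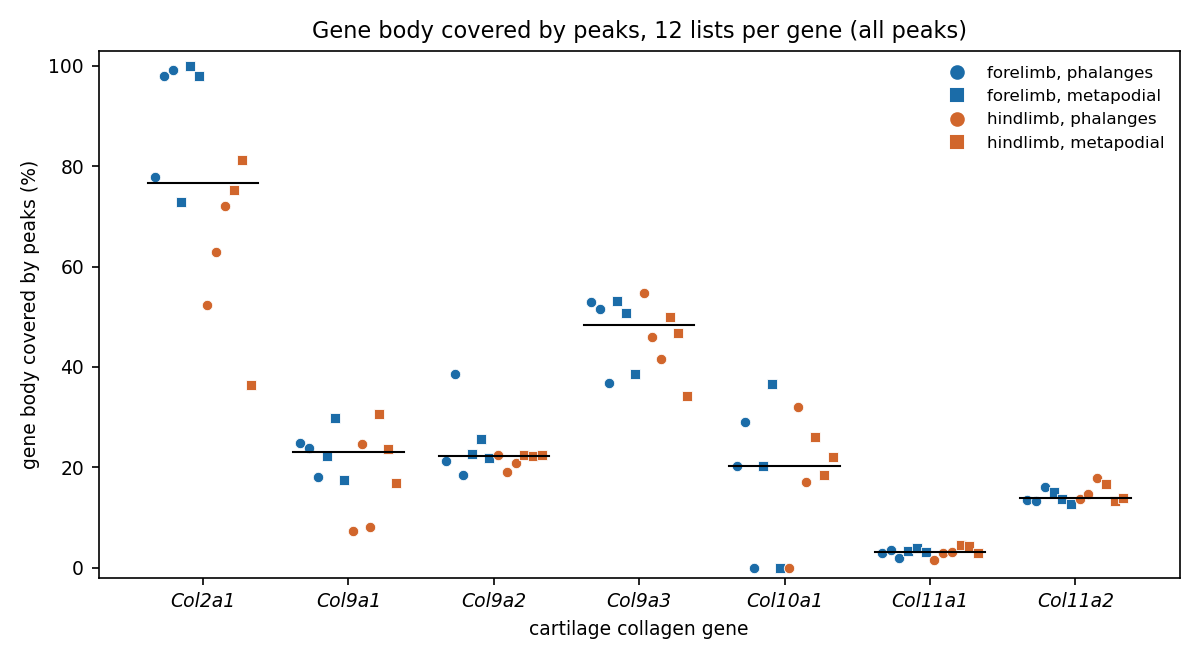
Percent of the gene body covered by peaks (y axis, all peaks) for the 7 genes (x axis), 1 point per list, blue for forelimb and orange for hindlimb, circles for phalanges and squares for metapodials, with a black line at the median. Col2a1 runs from 36.4 to 100% and its 4 highest points, 97.9 to 100%, are all forelimb, and Col10a1 has 3 points at 0.

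The first comparison was hindlimb against forelimb. Col2a1 was covered over less of its body in the hindlimb at equal list length. Its covered share was lowest at 72.8%, with a median of 97.9% and a highest value of 100%, in the 6 forelimb lists. In the 6 hindlimb lists the lowest was 36.4%, the median 51.9% and the highest 72.1%. The ranges did not overlap, and the hindlimb list was lower in 6 of 6 pairs matched for element and digit. The means were 54.1 ± 12.1% (SD, n = 6) and 91.0 ± 12.2%, a difference of -36.9 percentage points (two-sided exact permutation p = 0.0312, the smallest this design allows, and 0.667 after Benjamini-Hochberg adjustment over all genes). Of 16046 genes with a peak on the body, 3, Col2a1 included, had a difference as low, and 0.324% had ranges that did not overlap. The median difference over all genes was 0.20 points.

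The covered share of the whole Col2a1 window moved the same way at equal list length, from 19.95 ± 0.899% in the forelimb to 14.2 ± 2.2% in the hindlimb, again with no overlap, as in 0.327% of all genes (exact permutation p = 0.0312, adjusted p = 0.546 over all genes). With all peaks the difference was -27.6 points for the body (exact permutation p = 0.0625) and -4.38 points for the window (p = 0.0625, exact), neither past the threshold, and metatarsal I then exceeded metacarpal I. With the first 20000 peaks of each list the body difference was -13.5 points (exact permutation p = 0.281) and with the first 15000 it was -16.0 points (exact permutation p = 0.438). Without hand phalanges V or without metatarsal I it was -35.2 or -38.5 points (exact permutation p = 0.0625 each).

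Gaps in Col2a1 lay at several places and in lists of both limbs. In the forelimb, metacarpal I held no peak between 12.7 and 20.6 kb from the upper end, and hand phalanges I held none between 12.8 and 19.0 kb. Peaks of foot phalanges V and metatarsal I covered part of that sequence, up to 18.5 kb. Hindlimb gaps lay nearer the upper end and beyond. The body between 5.18 and 8.0 kb from the upper end held no peak in metatarsal III at equal list length, as between 5.15 and 10.5 kb in foot phalanges I and between 4.97 and 10.2 kb in metatarsal V. A 5.28-kb stretch 20.6 to 25.9 kb from the upper end (chr15:97978822-97984104) was covered in full in 5 forelimb lists and over 95.1% in metacarpal V. No hindlimb list had a peak there at equal list length. With all peaks metatarsal III covered it in full, metatarsal I over 11.98% and foot phalanges III over 1.76%, and the other 3 hindlimb lists had no peak on it. These peaks stood at ranks 38627 (fold enrichment 6.24), 39164 (5.93) and 44925 (5.34), past the cut at 36194. The hand phalanges V peak over the stretch was kept, at rank 34933 with a lower fold enrichment of 5.29. Peaks of the other forelimb lists there stood at ranks 7897 to 24715. The contrast between metatarsal III and hand phalanges V thus depended on where the cut fell. The cut lowered the body share of metatarsal III from 81.2 to 50.1%, metatarsal I from 75.4 to 62.1% and foot phalanges III from 62.9 to 51.5%. It changed no forelimb list. With all peaks metatarsal III exceeded metacarpal I (72.8%) and hand phalanges I (77.9%), so the ranges of the limbs then overlapped. Runs of at least 200 bp called in all 6 forelimb lists and in no hindlimb list were rare at equal list length, with 18 over the genome and 26065 bp called that way in all. The stretch in Col2a1 held 2 of them, of 2214 and 2808 bp. With all peaks the genome held 7 such runs and the windows none. The stretch was chosen after its values were seen and carries no test. The peak at the start of Col2a1 was present in all 12 lists, with fold enrichment of 20.9 to 32.6 in the hindlimb lists.

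**Figure D4:**
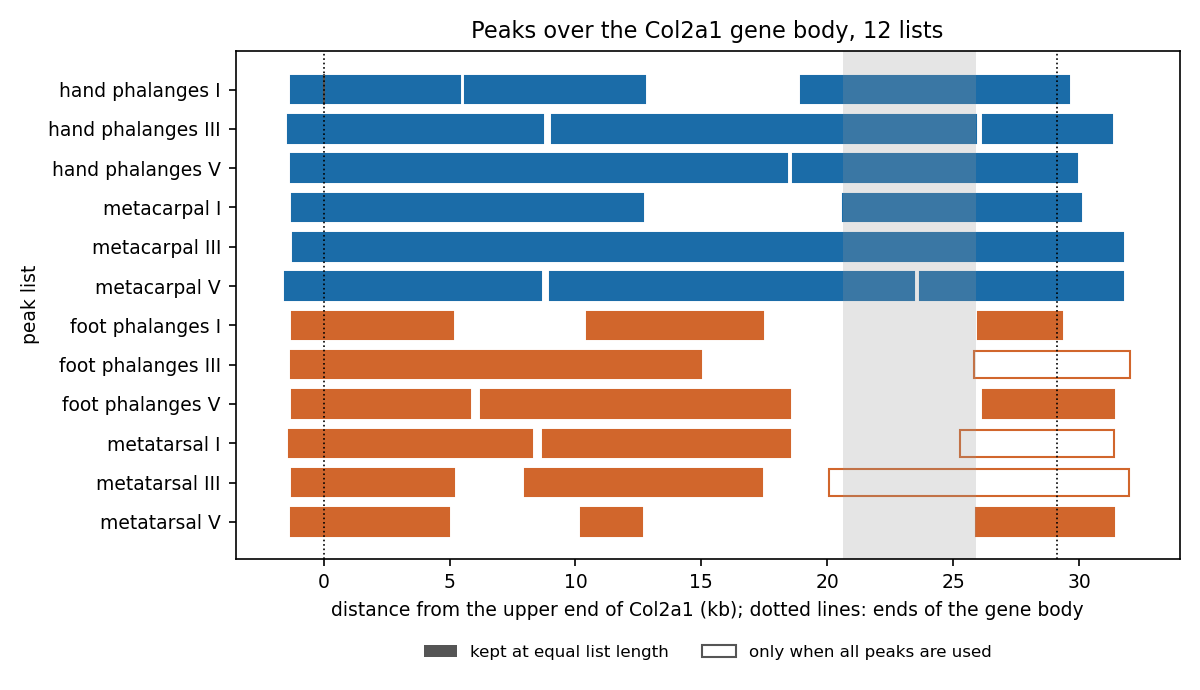
Peaks over Col2a1 in the 12 lists (y axis; blue forelimb, orange hindlimb) by distance in kb from the upper end of the gene (x axis); filled bars are peaks kept at equal list length, open bars peaks present when all peaks are used, dotted lines the ends of the gene body and the grey band the 5.28-kb stretch. All 6 forelimb lists have filled bars in the grey band and no hindlimb list has one.

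Other measures were read by limb beside this result. At equal list length the lists covered 75.4 to 102 Mb of the genome, 91.7 ± 9.05 Mb in the hindlimb and 87.1 ± 7.33 Mb in the forelimb (exact permutation p = 0.375). The gene bodies of 6 skeletal muscle markers had a summed covered share, in percent, of 9.21 to 138 (median 37.6) in the forelimb and 92.0 to 195 (median 142) in the hindlimb. That sum over 5 blood and macrophage markers was 11.2 to 123 (median 15.4) against 20.1 to 108 (median 80.8), and over 8 chondrocyte markers 265 to 360 (median 330) against 270 to 376 (median 300). Over 4 tendon markers it was 98.2 to 121 against 102 to 129, and over 5 endothelial markers 9.81 to 14.0 against 9.05 to 12.6. The sums overlapped between limbs and carry no test. Of the blood and macrophage markers, Hbb-bt had the widest range of body share, 0 to 98.8% over the lists with all peaks. With all peaks the hindlimb mean was higher for Hbb-bt (55.9 against 41.5%) and Spi1 (10.1 against 9.36%). It was lower for Ptprc (1.75 against 2.33%) and Csf1r (3.16 against 6.01%). At equal list length the median difference of the 4 blood markers tested was -0.717 points. Single markers were also tested at equal list length, where 4.69% of all genes passed. Of 4 endothelial markers 2 passed, in opposite directions: Kdr at 7.22 ± 1.08% in the hindlimb against 9.98 ± 1.58%, and Tek at 1.29 ± 0.642% against 0.568 ± 0.122% (exact permutation p = 0.0312 each). In the other marker sets 0 passed, of 8 chondrocyte, 5 muscle, 4 osteoblast, 4 blood, 4 nerve, 3 tendon and 1 epidermal marker tested. The part of these cells in the Col2a1 difference was not tested.

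The counts over the 7 genes by limb were low. With all peaks, 1 gene passed in the number of called regions (1.1% of all genes did), 0 in the covered share of the window (4.64%) and 0 in that of the body (4.05%). The 1 gene was Col2a1, with 8.0 ± 1.26 called regions in the hindlimb and 9.67 ± 0.816 in the forelimb (exact permutation p = 0.0312). Lists of equal length left Col2a1 short of the threshold in this measure, and 1 gene passed it (1.27% of all genes), Col9a1, with 8.83 ± 1.72 regions in the hindlimb and 11.50 ± 1.22 in the forelimb (exact permutation p = 0.0312). For the window share 2 passed (5.73%), Col2a1 and Col11a1, the latter at 3.26 ± 1.28% against 4.11 ± 1.11% (exact permutation p = 0.0312). For the body share 1 passed (4.69%), Col2a1. All of these were lower in the hindlimb.

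The second comparison was phalanges against metapodials, and Col11a1 and Col9a2 had less covered sequence in the phalanges. The covered share of the Col11a1 window was 1.19% at its lowest, 2.93 ± 1.18% on average and 4.42% at its highest in the phalanges, against 3.72%, 4.88 ± 0.712% and 5.94% in the metapodials (exact permutation p = 0.0312, adjusted p = 0.342 over all genes). The ranges overlapped, and the value was lower in 6 of 6 pairs matched for limb and digit. Foot phalanges I was the lowest list. For Col9a2 the window share was 5.38 ± 0.978% against 6.68 ± 1.28% (exact permutation p = 0.0312, adjusted p = 0.342).

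By count, 1 of 7 genes passed by element in the number of called regions (3% of all genes did), which was Col11a1 with 4.5 ± 1.05 regions in the phalanges and 6.0 ± 0.632 in the metapodials. In the window share 2 passed (9.15%) and in the body share 0 passed (6.84%). Col9a1 joined Col9a2 and Col11a1 in the window share at equal list length (3 of 7, against 13.7% of all genes), at 6.7 ± 2.19% in the phalanges and 9.53 ± 1.63% in the metapodials (exact permutation p = 0.0312). Col9a1 also had fewer called regions there, 9.0 ± 2.0 against 11.3 ± 1.21 (1 of 7 genes, against 4.9% of all genes), while 0 passed in the body share (7.97%). Every member that passed was lower in the phalanges.

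The third comparison set each digit against the other 2. Col9a3 had less of its body covered in digit V. The digit V lists had 36.8% (hand phalanges), 38.6% (metacarpal), 41.5% (foot phalanges) and 34.2% (metatarsal). The digit I lists had 53.0, 53.1, 54.8 and 49.9% in the same order, and the digit III lists 51.6, 50.7, 46.0 and 46.9%. All 4 digit V values lay below the other 8, and 0.54% of all genes had groups that did not overlap. The means were 37.8 ± 3.07% (n = 4) and 50.7 ± 3.08% (n = 8), a difference of -13.0 points (exact permutation p = 0.0123, the smallest this design allows, adjusted p = 0.754 over all genes). With each list left out in turn the difference stayed between -14.2 and -11.8 points and passed in 12 of 12 cases. At equal list length it was -14.0 points (exact permutation p = 0.0123), and hand phalanges III, at 37.8%, then lay within the range of digit V. With 500 bp round each summit in place of whole peaks the difference was 1.07 points, of the opposite sign.

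**Figure D5:**
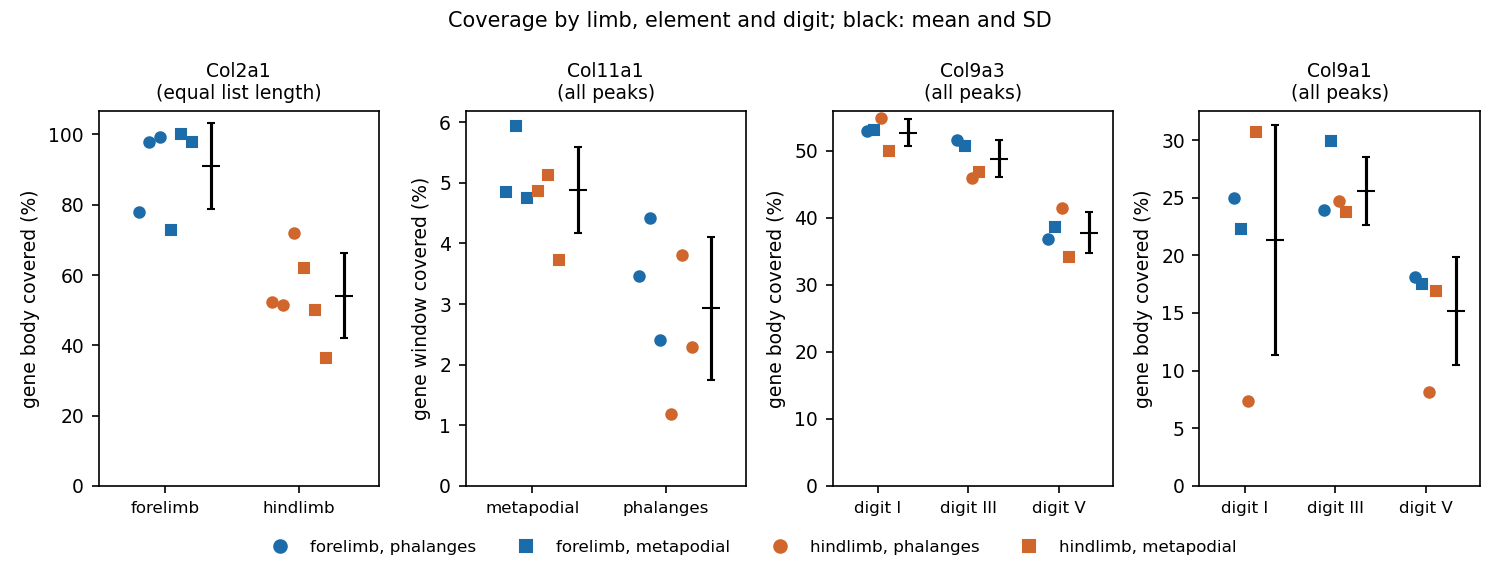
Coverage by peaks (y axis, percent of the gene body or window) for Col2a1 by limb at equal list length, Col11a1 by element, and Col9a3 and Col9a1 by digit with all peaks (x axis); points are lists (blue forelimb, orange hindlimb, circles phalanges, squares metapodials) and the black bars the mean and SD. The forelimb points of Col2a1 all lie above the hindlimb ones, and the digit V points of Col9a3 all lie below those of digits I and III.

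Col9a1, whose chain joins that of Col9a3 in type IX collagen, was also covered less in digit V with all peaks. Its body share was 18.1, 17.5, 8.18 and 16.9% in hand phalanges, metacarpal, foot phalanges and metatarsal V, with a mean of 15.2 ± 4.69%. The other 8 lists averaged 23.4 ± 7.16% (exact permutation p = 0.0494, adjusted p = 0.754). The ranges overlapped, since foot phalanges I had 7.34%, and at equal list length the difference of -4.74 points missed the threshold (exact permutation p = 0.0741). Col9a2, the remaining chain, had 21.0 ± 1.72% in digit V against 24.3 ± 6.03% (exact permutation p = 0.444).

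In digit V, 2 of 7 genes passed in the body share (5.66% of all genes did), 2 in the window share (6.66%) and 0 in the number of regions (5.57%). The window shares were 11.3 ± 1.93% against 13.7 ± 0.956% for Col9a3 and 6.77 ± 1.79% against 10.1 ± 3.02% for Col9a1. At equal list length Col9a3 alone passed in the body share (5.03%) and in the window share (4.92%), and 0 genes passed in regions (1.9%). The window share had a negative difference in all 7 genes with all peaks, and over all genes 85.7% had a negative one. At equal list length 6 of 7 did, against 71.6% of all genes. The summed body share of the 8 chondrocyte markers was 269 to 336 in digit V, 280 to 412 in digit I and 318 to 393 in digit III with all peaks. The part of this in the digit V values was not tested.

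In digit I, Col9a3 was covered more. Its body share was 52.7 ± 2.03% in digit I and 43.3 ± 6.48% in the others (1 of 7 genes passed, against 5.55% of all genes; exact permutation p = 0.037, adjusted p = 0.89), which shares the digit V values above. Its called regions numbered 9.5 ± 0.577 against 8.5 ± 0.535 (1 of 7, against 2.18%). Col11a2 was the member that passed in the window share (1 of 7, against 4.84%), at 27.3 ± 4.49% in digit I and 22.5 ± 3.15% in the others (exact permutation p = 0.037), with hand phalanges I at 32.3%. At equal list length the window share was higher for Col9a3 (14.2 ± 0.893% against 11.6 ± 1.45%, with no overlap, as in 0.297% of all genes) and for Col11a2 (2 of 7, against 8.6%). Col9a3 passed in the body share (1 of 7, against 7.11%). Col11a1 had fewer called regions, 4.25 ± 0.957 against 5.25 ± 0.707 (1 of 7, against 6.04%; exact permutation p = 0.0247). Of 6 muscle markers, 2 had a lower body share in digit I with all peaks, Myod1 by -52.1 and Myf5 by -37.7 points (exact permutation p = 0.037 each), while Myog, which did not pass, differed by 24.8 points, and the median of the list was -0.71. Of 5 muscle markers tested at equal list length, 0 passed. Alpl of osteoblasts was higher by 0.976 points at both list lengths (exact permutation p = 0.037). The part of these cells in the digit I values was not tested.

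In digit III, list length moved with the digit: its 4 lists held 44289 to 53276 peaks and the other 8 held 36194 to 46582. With all peaks, 3 of 7 genes had more called regions (Col2a1, Col9a1 and Col9a2, against 16.3% of all genes). Another 3 had a larger window share (Col9a2, Col10a1 and Col11a1, against 15.3%), and 0 passed in the body share (10.6%). At equal list length 0 passed in regions (5.05%), 2 in the window share (10.7%) and 1 in the body share (7.14%). The window share of Col10a1 was 8.39 ± 0.984% in digit III and 6.18 ± 1.59% in the others (exact permutation p = 0.0494). That of Col11a1 was 4.5 ± 0.821% against 3.28 ± 1.23% (exact permutation p = 0.0123), and its body share was 3.71 ± 0.534% against 2.78 ± 0.617% (exact permutation p = 0.037).

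Over the 7 genes and 5 contrasts, 6 of 35 differences in the number of called regions passed an unadjusted exact permutation p of 0.05 with all peaks, as did 8 of 35 in the window share and 3 of 35 in the body share. The counts were 3, 10 and 4 at equal list length. After Benjamini-Hochberg adjustment over all genes within a contrast, 0 members and 0 genes passed. The smallest p that the exact permutation test allows is 0.0312 by limb or element and 0.0123 by digit. With this many genes an adjusted p under 0.05 was hardly reachable, so the 0 does not show that no gene differs. The smallest adjusted p of a member was 0.213, for the window share of Col11a1 in digit III with all peaks.

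Col10a1, the hypertrophic gene, had lists with no peak on its body. The gene is 7.11 kb long (chr10:34389981-34397085). Its covered share was 0 in hand phalanges V, metacarpal V and foot phalanges I, 17.1% in foot phalanges V, and 18.6 to 36.6% in the other 8 lists, with metacarpal III highest. Hand phalanges I and metatarsal III also held no peak on the gene at equal list length. A region 3.01 kb from the gene (chr10:34383733-34386974) was called in 7 lists, 5 of the forelimb and 2 of the hindlimb. That region and the one on the Col10a1 body also lie inside Nt5dc1, so their peaks cannot be assigned to Col10a1 alone. The 3 regions called in all 12 lists in the Col10a1 window were at start sites of other genes, Tspyl4, Nt5dc1 and Frk. By limb, element or digit no difference in its body share passed, at either list length.

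The genes around the collagens were read in the same way, from lists that name partners, enzymes and regulators. Of the 10 cartilage matrix partners with a start site in the table, 7 had a peak in all 12 lists, where 62.5% of all start sites did, among them Acan, the core protein of aggrecan, and Hapln1, the link protein that binds it to hyaluronan. Epyc had one in 1 list. Of 17 genes for collagen folding and processing, 16 had a peak in all lists, including Serpinh1, the collagen chaperone, and P4hb, a subunit of prolyl hydroxylase. Of 10 regulators 8 did, Sox6 among them, while Runx2 had a peak at the start site in 3 lists and Sox5 in 0. Both genes had peaks on the body in every list, with lowest covered shares of 4.38% for Runx2 and 2.99% for Sox5. Of 15 other collagens 14 had a peak at the start site in all lists, including Col1a2 and Col3a1, the fibrillar chains of bone and soft tissue. Of 10 receptors and proteases 6 had one in all lists, and Ddr2 and Mmp13 had one in 0. The median mean body share was 31.0% for the regulators, 28.6% for the matrix partners and 20.7% for the 7 members. It was 20.6% for the folding genes, 9.76% for the other collagens and 8.69% for the receptors and proteases. These medians are not matched for gene length.

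By limb, Chad, a matrix protein that binds type II collagen, had a body share of 60.6 ± 10.6% in the hindlimb and 84.6 ± 15.1% in the forelimb (exact permutation p = 0.0312, adjusted p = 0.772 over all genes). Acan had 9.14 ± 4.92% against 14.9 ± 7.38% (exact permutation p = 0.0312). They were the 2 of 12 matrix partners that passed with all peaks, both lower, and the median difference of the list was -6.32 points, against 0.28 over all genes. Of the regulators 1 of 12 passed (Mef2d, higher in the hindlimb by 4.78 points), and of the folding genes 0 of 21, of the receptors and proteases 0 of 10 and of the other collagens 0 of 20, where 4.05% of all genes passed. Chad passed at equal list length and Acan did not.

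By element, 1 of 12 matrix partners, 3 of 21 folding genes, 1 of 12 regulators, 3 of 10 receptors and proteases and 0 of 20 other collagens passed with all peaks, where 6.84% of all genes did. Acan was lower in the phalanges by -6.77 points, as was Foxa3 by -13.5 points, and Pcolce, which speeds the trimming of procollagen, was higher by 23.7 points (exact permutation p = 0.0312 each). Pcolce and Foxa3 passed at equal list length too, and Acan did not. By digit, Acan was lower in digit V by -6.98 points and Sox6 by -1.39 points (exact permutation p = 0.037 and 0.0123). P4hb was higher in digit I by 26.6 points, and Col1a2 by 7.05 points (exact permutation p = 0.037 and 0.0123). Of these 4, Col1a2 passed at equal list length. In digit I with all peaks, 2 of 21 folding genes passed as higher and 1 as lower, and 1 of 12 regulators as higher. Among 20 other collagens 2 were higher and 1 lower, and 0 of 12 matrix partners and 0 of 10 receptors and proteases passed. Over all genes 5.55% did. The lower ones were Colgalt1 (-7.76 points, exact permutation p = 0.0494) and Col22a1 (-1.66 points, exact permutation p = 0.037).

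In digit III all list genes that passed with all peaks were higher: 2 of 12 matrix partners, 3 of 21 folding genes, 1 of 12 regulators, 3 of 10 receptors and proteases and 3 of 20 other collagens, where 10.6% of all genes passed in either direction. The counts at equal list length, where 7.14% of all genes passed, were 1 higher and 1 lower matrix partner, 2 and 2 folding genes, 0 and 1 regulators, 2 and 1 receptors and proteases and 3 and 0 other collagens. Fmod, a proteoglycan that binds collagen fibrils, was then lower by -29.3 points (exact permutation p = 0.0247). Plod2, a lysyl hydroxylase of collagen, was higher by 10.2 points (exact permutation p = 0.0123), and Runx2, the regulator linked to Col10a1, by 2.13 points (exact permutation p = 0.0123). Plod2 passed at equal list length and Runx2 did not. In digit V all that passed with all peaks were lower: 1 matrix partner, 0 folding genes, 2 regulators, 2 receptors and proteases and 1 other collagen, where 5.66% of all genes passed in either direction. Itga10, a subunit of a type II collagen receptor of chondrocytes, was lower by -4.16 points (exact permutation p = 0.0247), and did not pass at equal list length.

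For each member the gene on another chromosome with the most similar window share over the 12 lists at equal list length was named, by Pearson correlation. These were Styk1 for Col11a1 (r = 0.984), Ppp1r11 for Col9a1 (0.977), Dnal4 for Col11a2 (0.961), Mlf2 for Col9a3 (0.921), Ptprg for Col10a1 (0.916), Lekr1 for Col9a2 (0.893) and Gm10499 for Col2a1 (0.768). Each is the highest of 14417 to 15049 candidates, all read from the same 12 lists, and is a description. Among the members the values of Col9a1 and Col11a1 ran together (r = 0.876), as did those of Col10a1 and Col11a1 (0.786), Col9a2 and Col11a1 (0.768) and Col9a3 and Col11a2 (0.747). Col2a1 had no value above 0.389 with any other member.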

How the data were processed

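Tools listed in the submitters' processing notes are MACS3, Picard (version 2.9.0) and Bowtie2 (version 2.3.4.1), with mm10 as the build, and their settings are not given in the sources used here. Each of the 12 deposited peak lists pools 3 libraries. The authors' lists give a score, a fold enrichment, a −log10 p-value and further columns per peak, and the summit offset, which are the peak's own values, deposited by the authors and used here only to describe, order or filter peaks within a list. All lists were sorted by the deposited −log10 p-value.

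With Python 3.11.15, numpy 2.4.6, pandas 2.3.3 and matplotlib 3.10.9, peaks were merged at 1 bp of overlap. For every protein-coding gene with a peak, 3 measures were computed: called regions in the window, and percent of the window and of the body covered. Classes of lists were compared by a two-sided exact permutation test within strata of the other factors (64 labellings for limb or element, 81 for a digit) with Benjamini-Hochberg adjustment over all genes. The scripts were tested on simulated data. Genes, starts and promoter letters came from RefSeq tables of GRCm38.p6. All 7 members are named, with regions that separate a class, the most alike gene of each, and genes of related lists at unadjusted p under 0.05, of which the text gives examples. Members and lists were chosen with earlier results of these data known. Alternatives covered list length, window, significance, summit windows, the call rule, free permutation and leaving out each list. No count or depth was used, and precision is limited by the number of lists.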

Additional observations from a re-analysis of the deposited data

Results flagged for a closer look

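Of 98 sets of 4 or 6 lists checked, 8 held a list far from the others of its class, and chance alone marks about 1 set in 20. These are values with all peaks, and no cause was tested. Metatarsal V had 11.6% of the Col2a1 window covered, with the nearest metapodial list at 19.3%. Hand phalanges I had 32.3% of the Col11a2 window covered, with the nearest forelimb list at 23.3%. For the body of Col9a1, metacarpal III stood at 29.9% with the next digit III list at 24.7%, and foot phalanges V at 8.18% with the next digit V list at 16.9%. For the body of Col9a2, hand phalanges III stood at 38.5%, against 25.6% in the nearest forelimb list and 22.4% in the nearest phalanx list. Metacarpal III had 25.6% of that body covered, with the nearest metapodial list at 22.7%. For the body of Col11a1, hand phalanges V had 2.01%, with the nearest digit V list at 3.01%.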

How the results depend on the processing

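The number of passing differences moved with the settings. For called regions, 6 of 35 passed with all peaks, 3 at equal list length, 2 with 10 kb on each side, 3 with 500 bp round summits, 3 with labels swapped freely, and 1 to 9 with a list left out (1 without metacarpal III). For the window share the 8 became 3 with summit windows, 5 with free labels and 0 to 10 with a list left out (0 without metacarpal III). For the body share the 3 became 7 with the more significant 50% of peaks, 1 with summit windows, 5 with free labels and 1 to 3 with a list left out. The 38 regions called in all lists became 24 with 50 kb, 13 with 10 kb, 24 with the more significant 50% of peaks and 17 where 50% of a region had to be covered, fewer by construction, and 38 to 39 with a list left out. The 3 regions separating a class with 1 exception became 1 with the more significant 50%, 6 with 50% cover and 3 to 10 with a list left out (10 without hand phalanges III). With no exception the count was 0 under each setting run.

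With the more significant 50% of peaks 4 differences changed sign: Col2a1 regions by limb (0.333), Col9a2 regions and window share in digit III (-0.125 and -0.0522) and Col9a3 body share in digit I (-0.408). With summit windows 2 did: Col11a2 window share in digit I (-0.165) and Col9a3 body share in digit V (1.07). The cause was not tested. Of 88 differences that did not pass, 21 passed under at least 1 setting.

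Leaving out a list ended the call in at least 1 case for each of the 17 passing differences except Col9a3 body share in digit V. For Col2a1 by limb at equal list length, settings were added after seeing the data. The body difference was -32.7 points with the first 30000 or 25000 peaks and -40.5 to -33.3 with a list left out. The window difference was -4.95 (exact permutation p = 0.0625), -5.22, -2.34 and -2.21 points with the first 30000, 25000, 20000 and 15000 peaks, and -6.37 to -5.23 with a list left out, where without hand phalanges V the exact permutation p was 0.0625. No paired analysis was possible because the deposited lists pool the replicates, so that replicate numbers pair nothing, while lists were matched by limb, element and digit in the tests. A missing peak may lie below that list's threshold, and the read depth is unknown.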
